A study of Mus musculus with 29 samples.

Results

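Interferon-stimulated genes were followed in 4 bone marrow stem and progenitor populations of control and Dnmt3a-mutant mice. The 43 genes were chosen by symbol, mapped to Ensembl identifiers, and make up 43 of the 38924 gene identifiers in the count table. The rule uses no measured value, and all 43 symbols were found. The populations were LT-HSC (long-term repopulating stem cells), ST-HSC (stem cells that repopulate for a shorter time) and 2 kinds of multipotent progenitor. These were MPP3, which are biased towards granulocytes and macrophages, and MPP4, which are primed for lymphoid fates. The 29 libraries formed 8 groups. Control mice gave 4 LT-HSC, 3 ST-HSC, 3 MPP3 and 4 MPP4 libraries, and mutant mice gave 3, 4, 4 and 4 in the same order. All groups came from young C57BL/6 mice, 6 weeks after pIpC, so controls and mutants share that treatment. pIpC is a double-stranded RNA analogue that is itself an inducer of type I interferon and is used to switch on interferon-driven Cre lines. The mutant Dnmt3a allele, the Cre line and the surface markers of the sort are not given in the sources used here. The design text counts 3 mutant MPP3 libraries while the list holds 4, and all 4 were used. The labels do not say that replicates are separate animals, so p-values measure only how far these samples spread, and that spread may be technical.

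Type I interferons signal through the receptor chains IFNAR1 and IFNAR2 and the kinases JAK1 and TYK2 to transcription factors that include STAT2 and IRF9. A complex that holds STAT2 and IRF9 binds the interferon-stimulated response element (ISRE), while the gamma-activated site (GAS) is the element best known from the response to interferon gamma. The genes switched on this way include sensors and destroyers of viral RNA, GTPases that attack pathogens and their vacuoles, membrane proteins that block virus entry, and feedback regulators of the pathway. In the haematopoietic system, stem cells are known to hold some of these genes at a constant level without infection, and acute interferon drives dormant stem cells into cycle.

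The promoter letters are shown first because the ISRE is the element through which many interferon-stimulated genes are known to be switched on. RefSeq promoter windows of the GRCm38.p6 build, from 250 bases before to 50 bases after the start, were matched to 32 of the 43 genes, with 37 windows in all. The ISRE core was searched as GAAA, any 2 bases and GAAA, and the GAS as TTCNNNGAA, each on both strands. ISRE letters stood in the windows of 17 of the 32 genes (53.1%), against 3.99% of the 27025 genes with a window. GAS letters stood in 9 of the 32 (28.1%), against 9.55% of all genes. In 6 genes both motifs were present, and in Ifitm3 and Bst2 they overlapped. No window was matched for Usp18, Dhx58, Parp9, Parp14, Oas2, Zbp1, Mx1, Mx2, Iigp1, Ifi27 and Rtp4. The 6 stretches before the start below are printed 5′ to 3′ on the gene's strand, with ISRE letters of either strand in capitals, and show 1 gene of the ISG15 system, 3 RNA effectors and 2 GTPases.
Isg15 (chr4:156200845-156200914, minus strand): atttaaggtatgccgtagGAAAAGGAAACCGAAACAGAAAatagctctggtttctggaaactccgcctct
Ifit1 (chr19:34640774-34640843, plus strand): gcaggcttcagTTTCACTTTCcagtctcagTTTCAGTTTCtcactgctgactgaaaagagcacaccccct
Oas3 (chr5:120777695-120777764, minus strand): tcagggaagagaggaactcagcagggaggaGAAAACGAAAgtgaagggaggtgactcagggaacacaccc
Rsad2 (chr12:26456533-26456602, minus strand): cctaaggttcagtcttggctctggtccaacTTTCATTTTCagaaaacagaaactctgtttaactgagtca
Igtp (chr11:58199492-58199555, plus strand): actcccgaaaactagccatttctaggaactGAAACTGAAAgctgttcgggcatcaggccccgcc
Irgm1 (chr11:48871421-48871474, minus strand): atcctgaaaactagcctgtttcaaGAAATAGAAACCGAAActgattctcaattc

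**Figure D1:**
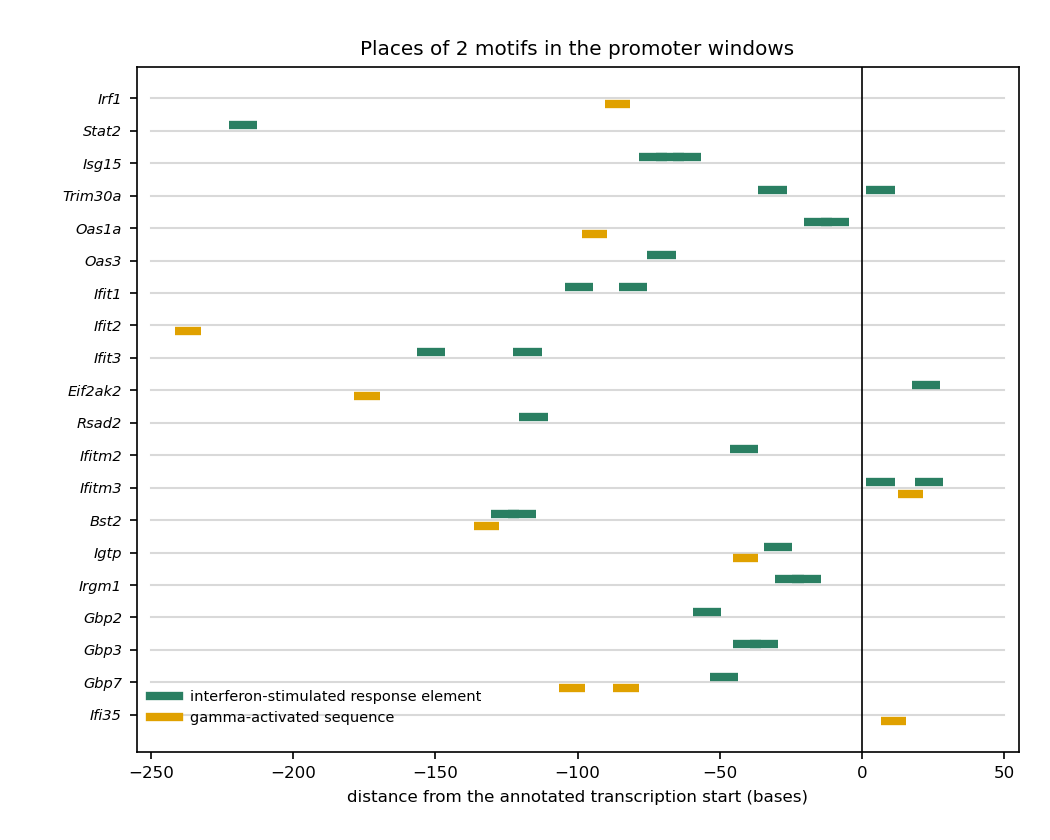
Map of ISRE (green) and GAS (amber) letters in the RefSeq windows of the members that hold either, with the distance from the gene start in bases on the x axis and 1 gene per row. Of the 27 ISRE matches, 23 lie before the start, and 11 members have one within the last 100 bases before it.

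Isg15 showed overlapping ISRE matches in 1 run, Ifit1 held a pair of separate ones, and Irgm1 held overlapping ones. Among the members whose level differed between groups by the test below, Rsad2 and Igtp held ISRE letters before the start and Ifitm3 after it. The windows of Oasl2, Samd9l, Ifi44 and Ifi209 held none, which says only that these letters are not in these windows.

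Library totals ran from 6133994 to 10374672 counts (median 8154515), and 3 counts, the upper limit that a count of 0 allows, stood at 0.288 to 0.564 CPM (the share of the library's counts, scaled by TMM to a common library size). The LT-HSC markers (9 genes) summed to 789.3 to 1638 CPM in LT-HSC and to 335.8 to 743.2 CPM in MPP3. They summed to 1108 to 2357 CPM in ST-HSC and to 735.8 to 1014 CPM in MPP4. Both ranges overlap that of LT-HSC, so this sum does not set LT-HSC apart from them. In MPP3 the granulocyte-monocyte progenitor markers (7 genes) summed to 4259 to 11200 CPM against 22.16 to 1081 CPM in LT-HSC. Flt3, which marks MPP4, was at 379.2 to 460.4 CPM in MPP4 and 52.5 to 114.6 CPM in MPP3. The summed early lymphoid markers (8 genes with Ighm) were higher in MPP3 (3332 to 24170 CPM) than in MPP4 (1705 to 2184 CPM). Most of the MPP3 sum was the antibody gene Ighm, at 2633 to 14880 CPM in controls and 3411 to 23650 CPM in mutants. In MPP4 Ighm stood at 231.5 to 354.4 CPM in controls and 201.5 to 309.3 CPM in mutants. This sum therefore does not rank MPP3 and MPP4 by lymphoid priming. Plasma cell markers (6 of 6 with a count) summed to 1064 to 14860 CPM in MPP3 and to 64.52 to 308.1 CPM in LT-HSC. Replicates 1, 2 and 3 of control LT-HSC stood apart, with 349 to 2260 CPM of S100a8, a neutrophil gene, against 3.67 CPM in replicate 4. Their neutrophil markers summed to 1751 to 11920 CPM and their erythroid markers to 4878 to 26710 CPM, against 104.5 and 376.9 CPM in replicate 4. Mutant MPP3 replicate 1 had the fewest genes with a count (14302). In bulk samples fewer cells of a type and less RNA per cell cannot be told apart, here and in every result below.

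A count was found in every library for 39 of the 43 genes. The exceptions were Ifi209 and Ifit3, with 6 libraries at 0 each, Mx2 with 4 and Oasl1 with 1. Per kilobase of exon, the membrane restriction factors Ifitm2 and Ifitm3, which stop virus fusion at endosomes, stood highest, at mean levels of 399 and 334 CPM per kb over the 29 libraries. In the other role groups the leading levels were 27.4 CPM per kb for Ifi27, a mitochondrial protein, and 5.79 for Rtp4, a chaperone of membrane receptors. They were 25.85 CPM per kb for the ubiquitin ligase Trim25 and 18.2 for Dtx3l, another ubiquitin ligase. Gbp7 and Igtp, GTPases, stood at 14.9 and 12.35 CPM per kb. The RNA-activated kinase Eif2ak2 (PKR) and the OAS-like Oasl2 stood at 13.8 and 9.63 CPM per kb, and the transcription factors Irf1 and Irf9 at 10.98 and 10.5. The classical induced genes were low, with 3.42 CPM per kb for Isg15, 3.68 for Ifit1 and 1.10 for Mx1. Mx2, which the annotation lists as a polymorphic pseudogene, was the lowest at 0.548.

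**Figure D2:**
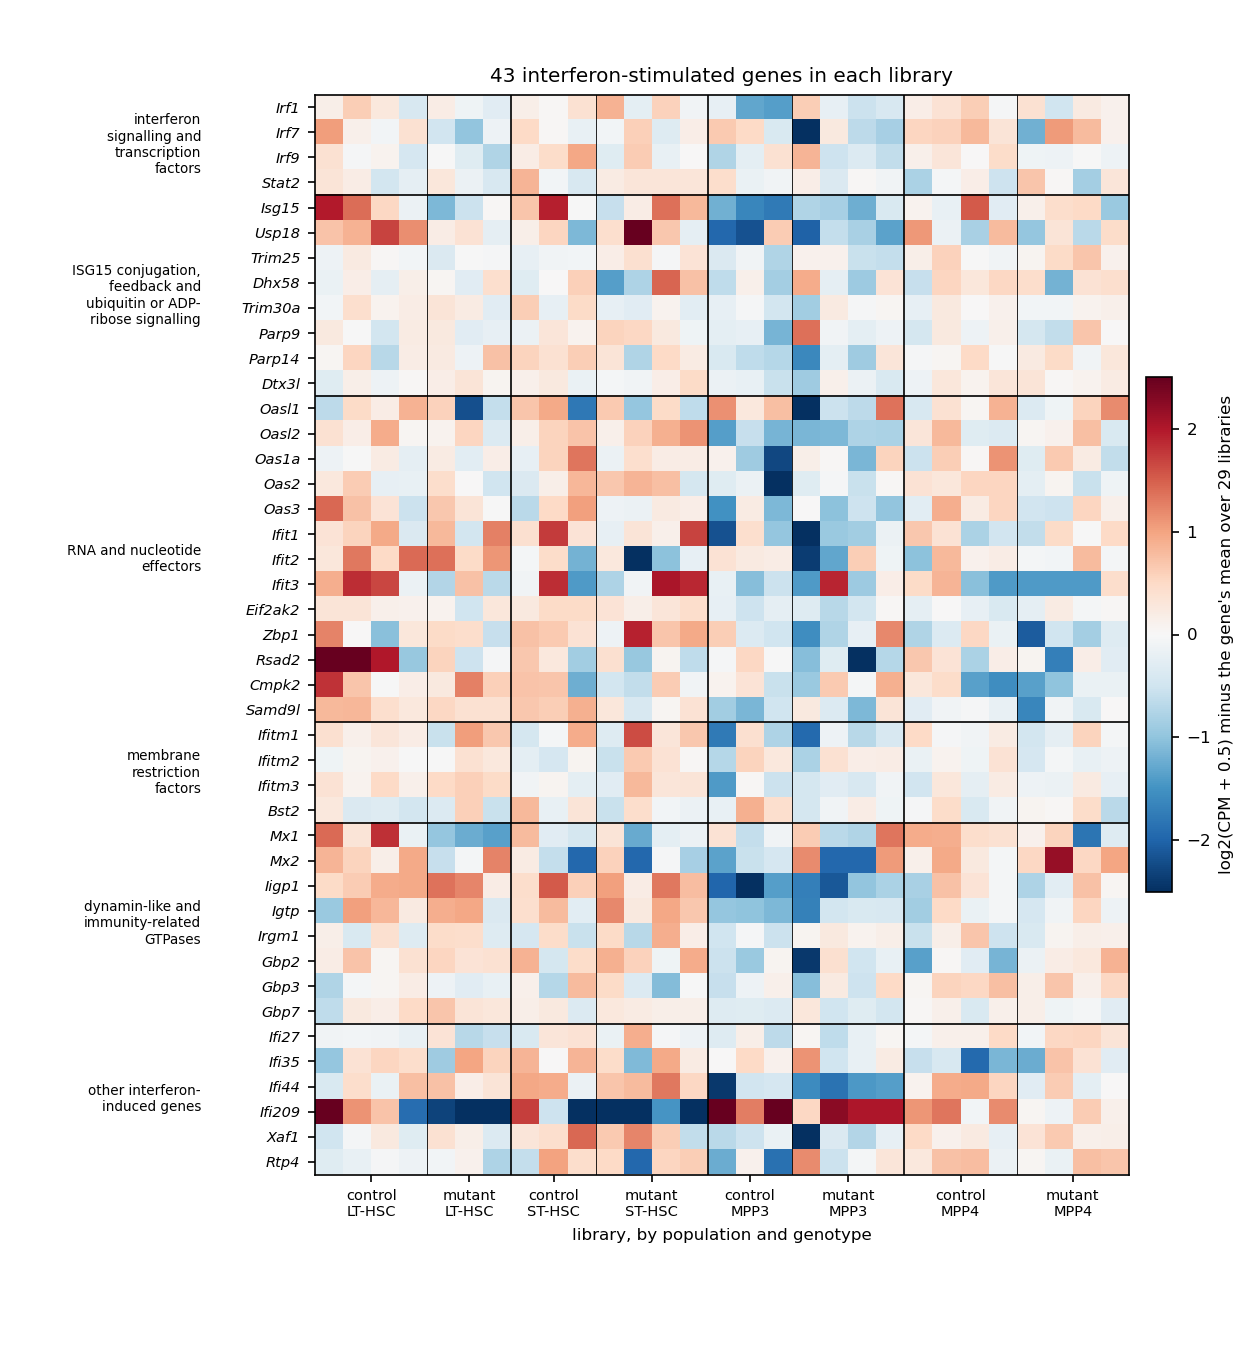
Heat map of the 43 genes (rows, by role) in the 29 libraries (columns, by group), coloured by log2(CPM + 0.5) minus the gene's mean over all libraries, with colours capped at the ends of the scale. The group mean is lowest in MPP3 for 31 of 43 genes in controls and for 23 in mutants.

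In control mice the genes stood lowest in MPP3. The group mean was lowest in MPP3 for 31 of the 43 genes (72.1%), against 28.2% of all genes. It was highest in ST-HSC for 16 (37.2%), against 28.4% of all genes. The median deviation of the 43 genes from their means over all libraries was -0.50 to -0.16 (log2) in the control MPP3 libraries, -0.02 to 0.35 in MPP4, 0.10 to 0.37 in LT-HSC and 0.24 to 0.34 in ST-HSC. All 3 control MPP3 libraries were below every other control library. edgeR's quasi-likelihood test called 4 genes different among the control populations after Benjamini-Hochberg adjustment (Rsad2, Oasl2, Samd9l and Iigp1), when 5.86% of all genes tested were called. The call of Rsad2 was kept in 10 of 22 alternatives (adjusted p up to 0.737) and that of Oasl2 in 14 of 22 (up to 0.162), and those of Samd9l and Iigp1 in 22 of 22. Without the 3 LT-HSC libraries high in S100a8, both Rsad2 and Oasl2 lost the call.

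Against control LT-HSC, 37 of the 43 genes were lower in control MPP3, with a median log2 difference of -0.65 where the median of all genes was -0.02. Iigp1, Oasl2 and Samd9l fell by the test, when 0.810% of all genes were called lower. Without the 3 LT-HSC libraries high in S100a8, 36 were lower (median -0.42) and 1, Iigp1, was called. Against control ST-HSC, 36 of 43 were lower (median -0.59), and the same 3 genes and Parp14 were called, when 0.770% of all genes were called lower. The comparisons with LT-HSC and ST-HSC share the MPP3 libraries. In MPP3 the markers of granulocyte-monocyte progenitors and plasma cells were higher by the sums given above, and their part in the lower levels was not tested.

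Iigp1 (ENSMUSG00000054072) encodes an immunity-related GTPase that loads onto the vacuoles of intracellular parasites. Its level was 3.13, 1.79 and 4.98 CPM in the 3 control MPP3 libraries, 19.5, 21.8, 26.8 and 27.0 CPM in control LT-HSC, and 18.8, 40.9 and 21.2 CPM in control ST-HSC. Control MPP4 held 7.65, 23.3, 17.6 and 13.2 CPM. Every MPP3 library was below every library of the other populations. The log2 difference of MPP3 was -2.83 ± 0.463 (SE) from LT-HSC (edgeR adjusted p = 0.00463) and -3.02 ± 0.480 from ST-HSC (adjusted p = 0.00789), and both calls held under every alternative (15 of 15 and 13 of 13, adjusted p up to 0.0412 and 0.0331). Against control LT-HSC replicate 4 alone, without the 3 libraries high in S100a8, the difference was -3.02 (adjusted p = 0.0412). MPP4 was above MPP3 by 2.21 ± 0.453 (adjusted p = 0.0218), the 1 member called higher there when 0.442% of all genes were. That call was lost without control MPP3 replicate 1 or 2 or control MPP4 replicate 2 or 3 (adjusted p up to 0.109).

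Samd9l (ENSMUSG00000047735, GRCm38 chr6:3372257-3399572) restrains cell growth and virus translation and is a tumour suppressor of the myeloid lineage. It stood at 22.2, 18.2 and 28.8 CPM in control MPP3 and at 72.1, 72.4, 54.5 and 49.0 CPM in control LT-HSC. Control ST-HSC held 64.8, 62.5 and 75.8 CPM, and control MPP4 33.5, 38.1, 39.8 and 35.6 CPM. The MPP3, MPP4 and LT-HSC values did not overlap, with MPP3 lowest and MPP4 between. MPP3 was lower by -1.42 ± 0.229 (log2) than LT-HSC (edgeR adjusted p = 0.00435) and by -1.56 ± 0.240 than ST-HSC (adjusted p = 0.00629). The first call was lost when the 3 LT-HSC libraries high in S100a8 were left out (-1.09, adjusted p = 0.253, the highest of 15 alternatives, whose lowest was 3.52e-07), and the second was kept in 13 of 13.

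Samd9l was also 1 of 2 members called lower in control MPP4 than in LT-HSC (-0.75 ± 0.204, edgeR adjusted p = 0.0442, with 3.01% of all genes called lower) and the 1 member called lower than in ST-HSC (-0.89 ± 0.218, adjusted p = 0.0488, with 0.844% of all genes called lower). These calls were kept in 4 of 16 and 2 of 14 alternatives (adjusted p up to 0.877 and 0.181). Leaving out any 1 library of the groups compared ended them, apart from control LT-HSC replicate 4.

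Oasl2 (ENSMUSG00000029561, GRCm38 chr5:114896936-114912234) is an OAS-family protein with ubiquitin-like repeats. It stood at 20.96, 36.8 and 24.4 CPM in control MPP3, at 72.1, 62.1, 105.6 and 56.9 CPM in control LT-HSC, and at 61.1, 81.5 and 90.7 CPM in control ST-HSC. Control MPP4 held 68.5, 97.65, 44.9 and 43.3 CPM. The highest MPP3 library was below every other control library. MPP3 was lower by -1.43 ± 0.323 (log2) than LT-HSC (edgeR adjusted p = 0.0347) and by -1.51 ± 0.338 than ST-HSC (adjusted p = 0.0330), and these calls were kept in 9 of 15 and 7 of 13 alternatives. The first was lost without control MPP3 replicate 1 or 3 or control LT-HSC replicate 2 or 3, and was -1.06 (adjusted p = 0.418, the highest) without the 3 libraries high in S100a8. The second was lost without any of the 3 MPP3 libraries or control ST-HSC replicate 2 or 3 (adjusted p up to 0.152).

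Parp14 (GRCm38 chr16:35832874-35871544), an ADP-ribosyltransferase, stood at 42.3, 35.5 and 33.8 CPM in control MPP3 and at 81.3, 72.6 and 84.7 CPM in control ST-HSC. These groups did not overlap. The log2 difference was -1.10 ± 0.272 (edgeR adjusted p = 0.0472). Leaving out any 1 of the 6 libraries ended the call, which was kept in 4 of 13 alternatives (adjusted p up to 0.193).

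**Figure D3:**
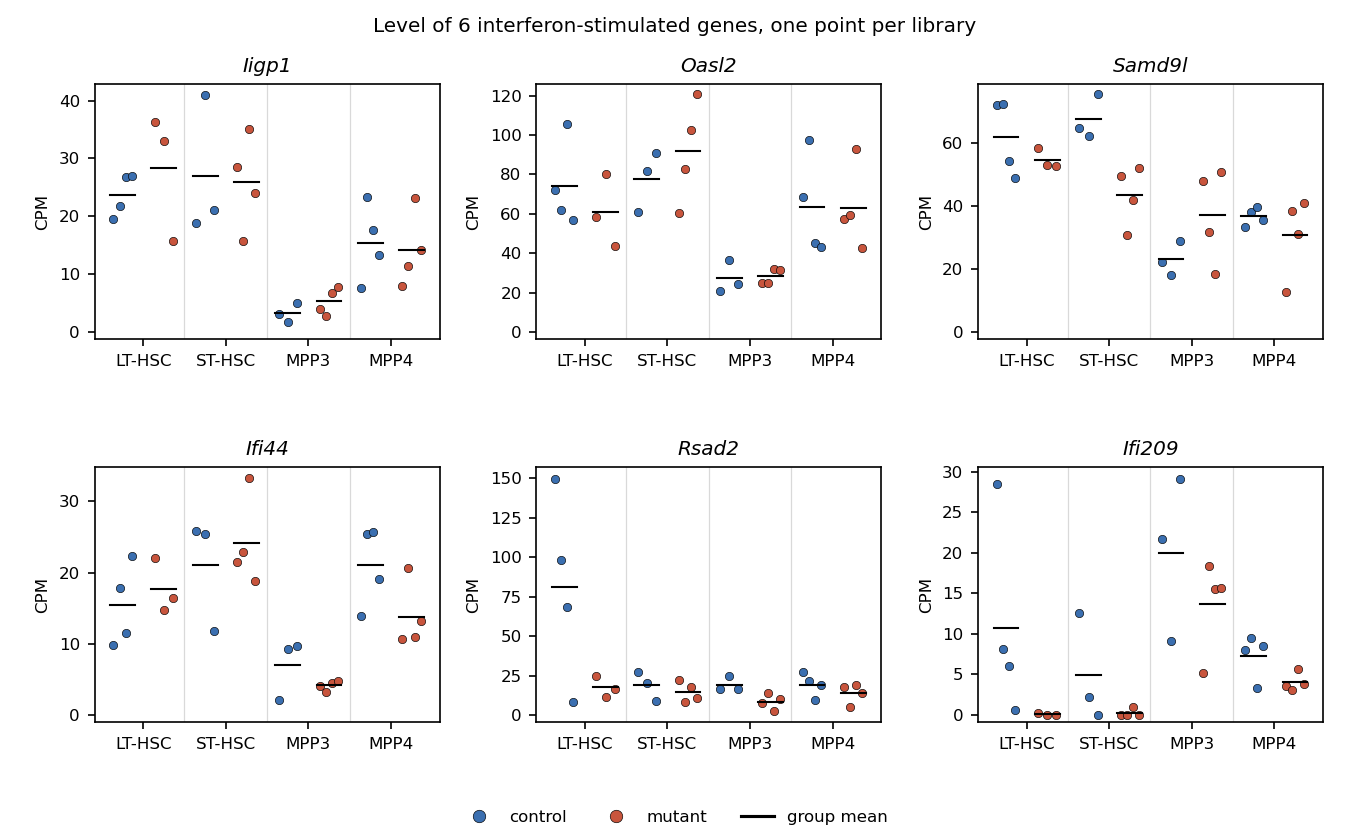
CPM of Iigp1, Oasl2, Samd9l, Ifi44, Rsad2 and Ifi209 in every library, by population and genotype, with points for libraries and bars for group means. The control MPP3 points of Iigp1, Oasl2 and Samd9l lie below those of control LT-HSC, and the Ifi209 points of mutant LT-HSC and mutant ST-HSC lie at or near 0.

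Control ST-HSC and LT-HSC were not told apart by the test. No member was called by edgeR when 0.100% of all genes were, while 3 had an unadjusted p under 0.05, against 10.4% of all genes, and DESeq2 called 1. Of the 43 genes, 26 were higher in ST-HSC and 17 lower (median 0.08).

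In mutant mice, too, the genes most often stood lowest in MPP3. The group mean was lowest in mutant MPP3 for 23 of 43 genes (53.5%), against 27.3% of all genes, and 19 of these were among the 31 of the controls. Mutant ST-HSC had the highest mean for 18 genes (41.9%), against 27.7% of all genes. The median deviation of the 43 genes was -0.79 to -0.10 (log2) in mutant MPP3, -0.13 to 0.22 in mutant MPP4, -0.03 to 0.25 in mutant LT-HSC and 0.18 to 0.30 in mutant ST-HSC, so mutant MPP3 reached into the range of mutant MPP4. The lowest value was that of mutant MPP3 replicate 1, the library with the fewest genes, in which the median of all genes was -0.20. edgeR called 5 members different among the mutant populations (Ifitm3, Ifi44, Oasl2, Ifi209 and Iigp1), when 6.18% of all genes were called. The call of Ifitm3 was kept in 6 of 22 alternatives (adjusted p up to 0.124), and those of the other 4 in 22 of 22.

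Against mutant LT-HSC, 33 of the 43 genes were lower in mutant MPP3 (median -0.23). Iigp1, Ifi44, Oasl2 and Ifitm3 were called lower, when 1.25% of all genes were, and Ifi209 was called higher, when 1.71% were. Against mutant ST-HSC, 34 were lower (median -0.43). Ifi44, Oasl2, Usp18, Iigp1 and Igtp were called lower, when 1.45% of all genes were, and Ifi209 higher, when 2.82% were. Without mutant MPP3 replicate 1 the median against LT-HSC was -0.33, and the calls of Ifitm3 and Oasl2 against LT-HSC were lost (edgeR adjusted p = 0.0794 and 0.0945). In all, 5 members were then called against LT-HSC, so others had passed instead, and 4 were called against ST-HSC.

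Iigp1 stood at 3.90, 2.79, 6.67 and 7.74 CPM in mutant MPP3 and at 36.3, 32.9 and 15.7 CPM in mutant LT-HSC. Mutant ST-HSC held 28.5, 15.8, 35.1 and 24.0 CPM, again with no overlap with MPP3. MPP3 was lower by -2.44 ± 0.466 (log2) than LT-HSC (edgeR adjusted p = 0.00625) and by -2.30 ± 0.446 than ST-HSC (adjusted p = 0.00569), and the calls held under 14 of 14 and 15 of 15 alternatives. Iigp1 was thus called in both genotypes, whose libraries are not shared, and in both stem cell comparisons.

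Ifi44 (ENSMUSG00000028037, GRCm38 chr3:151730922-151749960), a GTP-binding antiviral protein, was narrow in its range in mutant MPP3, at 4.08, 3.28, 4.52 and 4.71 CPM. Mutant LT-HSC held 22.1, 14.7 and 16.4 CPM, mutant ST-HSC 21.4, 22.9, 33.3 and 18.9 CPM, and mutant MPP4 10.6, 20.6, 10.9 and 13.15 CPM. All 4 MPP3 values were below all others. MPP3 was lower by -2.11 ± 0.381 (log2) than LT-HSC (edgeR adjusted p = 0.00426) and by -2.55 ± 0.369 than ST-HSC (adjusted p = 0.00071), and both calls held under every alternative (14 of 14 and 15 of 15).

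Mutant MPP4 was above mutant MPP3 in Ifi44 by 1.75 ± 0.361 (log2, edgeR adjusted p = 0.0155) and in Oasl2 by 1.17 ± 0.280 (adjusted p = 0.0407), the 2 members called higher when 0.305% of all genes were. The Ifi44 call was lost without mutant MPP4 replicate 2 or mutant MPP3 replicate 2 (adjusted p up to 0.0789). The Oasl2 call was kept in 7 of 15 alternatives (adjusted p up to 0.176) and lost without any 1 of the 4 MPP3 libraries or mutant MPP4 replicate 1, 2 or 3. In controls, Ifi44 stood at 2.04, 9.225 and 9.64 CPM in MPP3 and at 9.87, 17.8, 11.5 and 22.3 CPM in LT-HSC, and the highest MPP3 library lay just under the lowest LT-HSC library. That difference was -1.13 ± 0.494 (adjusted p = 0.317), and was not called.

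Oasl2 stood at 24.9, 24.9, 31.95 and 31.5 CPM in mutant MPP3, at 58.6, 80.2 and 43.7 CPM in mutant LT-HSC, and at 60.6, 82.9, 102.4 and 120.9 CPM in mutant ST-HSC. MPP3 overlapped neither. The log2 difference was -1.13 ± 0.297 from LT-HSC (edgeR adjusted p = 0.0457), a call lost when any 1 of the 7 libraries was left out (5 of 14 alternatives kept it, adjusted p up to 0.240). It was -1.71 ± 0.284 from ST-HSC (adjusted p = 0.00225), kept in 15 of 15.

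Ifitm3 (GRCm38 chr7:141009586-141010770) stood at 161.1, 179.4, 165.3 and 203.3 CPM in mutant MPP3 and at 307.6, 329.6 and 303.7 CPM in mutant LT-HSC, without overlap. The log2 difference was -0.84 ± 0.211 (edgeR adjusted p = 0.0347). It was kept in 6 of 14 alternatives (adjusted p up to 0.127) and lost without any 1 of the libraries except mutant MPP3 replicate 4.

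Usp18 and Igtp were called between mutant MPP3 and ST-HSC. Usp18 (GRCm38 chr6:121245906-121270917), which removes ISG15 from proteins and dampens receptor signalling, held 0.371, 1.82, 1.51 and 0.898 CPM in mutant MPP3 and 4.23, 27.8, 5.13 and 2.52 CPM in mutant ST-HSC. The groups did not overlap, and replicate 2 of ST-HSC stood far above its group. The log2 difference of -3.07 ± 0.809 (edgeR adjusted p = 0.0357) became -1.75 (adjusted p = 0.248, the highest of 15 alternatives) without that library. The call was also lost without any 1 of the 4 MPP3 libraries.

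Igtp (GRCm38 chr11:58199556-58207591), an immunity-related GTPase, held 6.495, 15.8, 16.8 and 16.5 CPM in mutant MPP3 and 51.0, 26.1, 43.4 and 35.3 CPM in mutant ST-HSC, without overlap. The log2 difference was -1.50 ± 0.375 (edgeR adjusted p = 0.0275). The call was lost without mutant MPP3 replicate 1, 2 or 3 or mutant ST-HSC replicate 1 or 3 (adjusted p up to 0.0766). Igtp shares 7974 bases of its span with Irgm2 on the same strand, so reads could be split between them. In controls Igtp was at 11.02, 10.6 and 9.85 CPM in MPP3 against 11.3, 44.9, 39.1 and 25.7 CPM in LT-HSC, and was not called.

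Samd9l stood at 48.1, 31.8, 18.5 and 50.8 CPM in mutant MPP3 and at 58.7, 53.1 and 52.8 CPM in mutant LT-HSC. The groups did not overlap, but MPP3 spread widely. The log2 difference was -0.58 ± 0.370 (edgeR adjusted p = 0.547), and was not called.

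**Figure D4:**
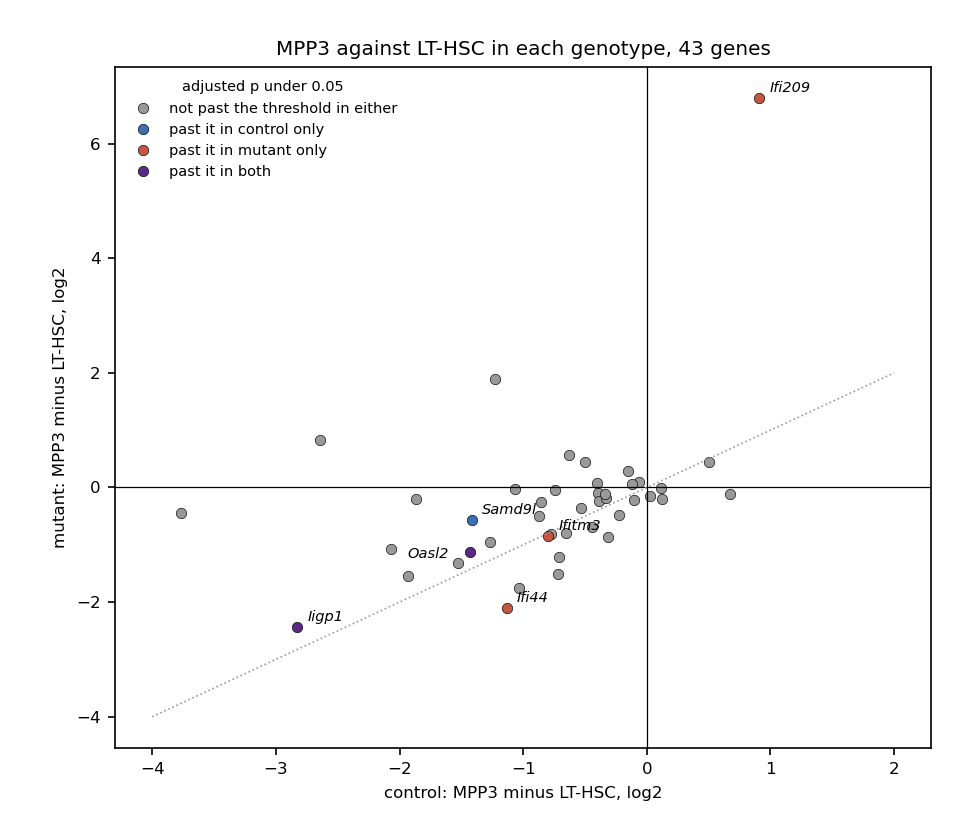
Log2 difference of MPP3 from LT-HSC for each of the 43 genes, in controls (x axis) and in mutants (y axis), with the dotted line where both are equal and coloured points for genes with adjusted p under 0.05. Most points lie at the lower left, where 29 genes are lower in both genotypes, while Ifi209 stands alone at the top, at a fitted value that depends on the prior count.

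Set side by side, 29 of the 43 genes were lower in MPP3 than in LT-HSC in both genotypes and 2 were higher in both. Iigp1 and Oasl2 were called in both, which is 66.67% of the 3 control calls and 40.0% of the 5 mutant calls. Mutant ST-HSC and LT-HSC were not told apart. edgeR called no member when 0.278% of all genes were called, 1 member (Ifit2) had an unadjusted p under 0.05, against 7.93% of all genes, and DESeq2 called 0.

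By role, the lower level in control MPP3 than in LT-HSC spread over most groups. All 8 dynamin-like and immunity-related GTPases were lower (median log2 -1.002), as were 12 of the 13 RNA and nucleotide effectors (median -0.87) and all 8 genes of ISG15 conjugation and ubiquitin or ADP-ribose signalling (median -0.45). The remaining groups were mixed, with 3 of the 4 signalling and transcription factor genes (median -0.13), 2 of the 4 membrane restriction factors and 4 of the 6 other genes lower. In mutants the counts were 6 of 8 GTPases (median -0.44), 11 of 13 RNA effectors (median -0.50), 6 of 8 of the ISG15 group (median -0.34), all 4 membrane factors (median -0.52), 3 of 4 signalling genes and 3 of 6 other genes. The low-level gene Isg15, named after its values were seen, held 0.544, 0.275 and 0.212 CPM in control MPP3 and 9.01, 5.825, 2.94 and 1.69 CPM in control LT-HSC. Its difference of -3.77 ± 0.923 had an edgeR adjusted p of 0.0526. Of the genes with a promoter window, 14 of the 17 with ISRE letters were lower in control MPP3 than in LT-HSC (median -0.74), and so were 12 of the 15 without (median -0.39). In mutants these were 15 of 17 (median -0.36) and 12 of 15 (median -0.48).

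None of these genes was called between the genotypes within a population. By edgeR with Benjamini-Hochberg adjustment, 0 members were called in mutant against control LT-HSC, ST-HSC, MPP3 or MPP4, and 0% of all genes were called in each. In LT-HSC 18 members were higher and 25 lower in mutants (median log2 -0.08, all genes 0.00). Without the 3 control LT-HSC libraries high in S100a8, 23 of the 42 tested were higher and 19 lower (median 0.09). In ST-HSC 20 were higher and 21 lower (median -0.02), in MPP3 26 and 14 (median 0.07), and in MPP4 16 and 26 (median -0.05). The filter on low counts left out Ifi209 and Mx2 in ST-HSC, Ifit3, Isg15 and Mx2 in MPP3, and Ifit3 in MPP4.

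At an unadjusted p under 0.05, 5 members were lower in mutant LT-HSC, against 8.51% of all genes with such a p, and DESeq2 called 2. These were Mx1 (log2 -2.63), Rsad2 (-2.21), Usp18 (-1.14), Isg15 (-1.98) and Ifi209 (-6.46, with 3 counts in the mutant group). Samd9l (-0.63) was the 1 such member in ST-HSC, against 3.68% of all genes, and DESeq2 called 0. There were 0 in MPP3, against 2.23%, with 0 by DESeq2. In MPP4 there were 2, Gbp2 (0.94) and Oas2 (-0.63), against 3.15%, and DESeq2 called 0. Mx1, a dynamin-like GTPase named after its values were seen, held 1.504, 1.15 and 1.03 CPM in mutant LT-HSC and 9.87, 4.399, 13.4 and 2.965 CPM in control LT-HSC, with no overlap. Control LT-HSC replicate 4 is the library of this group low in S100a8. It was the lowest of the 4 for Mx1, for Isg15 (1.69 CPM), for Rsad2 (8.47 CPM) and for Ifi209 (0.565 CPM), but not for Usp18. Usp18 stood at 7.34 CPM in it, against 5.29, 5.94 and 10.8 CPM in replicates 1, 2 and 3. Mutant LT-HSC held 3.51, 4.03 and 2.52 CPM of Usp18. The part of other cells in these differences was not tested.

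**Figure D5:**
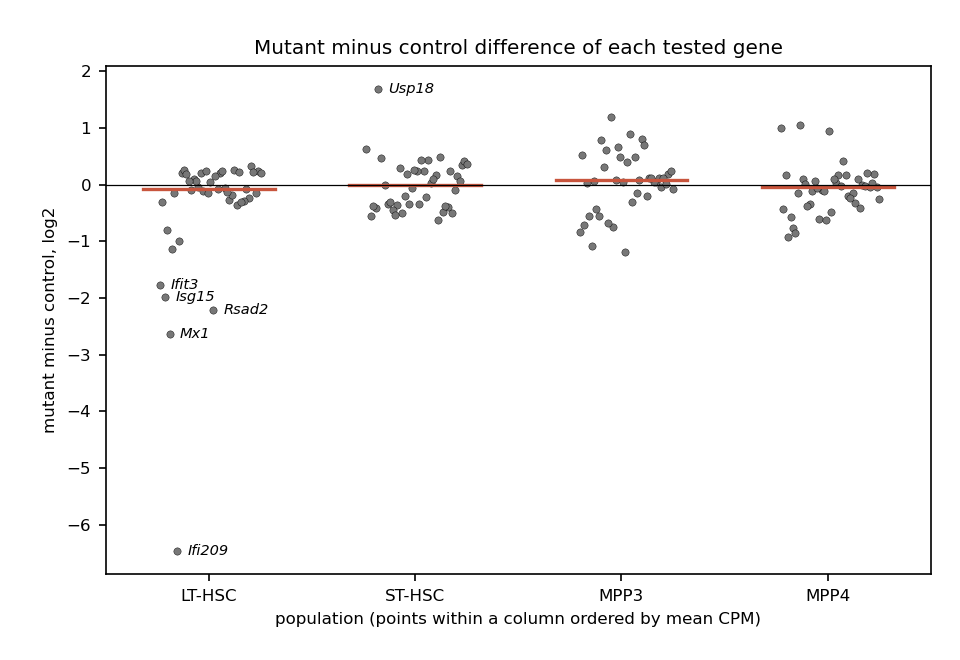
Log2 difference of mutant from control for each tested member (points) in each population, with a bar at the median. The medians lie between -0.08 and 0.07, and Ifi209 in LT-HSC, a fitted value from 3 mutant counts, is the lowest point.

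Averaged over the 4 populations, 19 members were higher and 24 lower in mutants (median -0.01). All 13 RNA and nucleotide effectors were on the lower side (median -0.10), though none was called. Without the 3 control LT-HSC libraries high in S100a8, 6 of these 13 were lower and 7 higher (median 0.03), and 17 of all 43 members were lower and 26 higher. edgeR called 1 member lower, Ifi209, when 0.0251% of all genes (4 genes) were called lower. In the test of whether that effect varied with population (3 degrees of freedom), edgeR called 0 members, and 0% of all genes. An unadjusted p under 0.05 was found there for 3 members, Mx1, Ifi209 and Samd9l, against 5.94% of all genes, and DESeq2 called 1.

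Ifi209 (ENSMUSG00000043263, GRCm38 chr1:173630917-173647928, plus strand) belongs to the p200 family of PYHIN proteins, several of which bind DNA. Its level in LT-HSC was 28.5, 8.08, 5.99 and 0.565 CPM in controls and 0.301, 0 and 0 CPM in mutants. In ST-HSC it was 12.6, 2.26 and 0 CPM in controls and 0, 0, 0.932 and 0 CPM in mutants. The mutant LT-HSC libraries were all below the lowest control, at or under the floor of 3 counts, whereas the ST-HSC groups overlapped at 0. In the progenitors it was present in both genotypes. MPP3 held 21.6, 9.09 and 29.1 CPM in controls and 5.20, 18.3, 15.5 and 15.6 CPM in mutants, and MPP4 held 8.06, 9.51, 3.31 and 8.45 CPM in controls and 3.58, 3.14, 5.70 and 3.80 CPM in mutants.

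The count of Ifi209 over the control LT-HSC libraries was 322 against 3 over the mutant ones, a ratio of 94.8 (95% exact interval 32.2 to 462, for counting error only, since PCR copies are not independent molecules). In ST-HSC it was 135 against 6, a ratio of 25.2 (11.3 to 69.8). Both ratios rest on few control libraries. Without control LT-HSC replicate 1, which held 199 of the 322 counts, the first was 46.8 (15.6 to 230), and without the 3 libraries high in S100a8 it was 5.16 (0.872 to 35.2), from 4 counts against 3. Without control ST-HSC replicate 1, which held 115 of the 135 counts, the second was 5.99 (2.32 to 18.2). These libraries were chosen after seeing the data. The average mutant effect was -3.06 ± 0.570 (log2, edgeR adjusted p = 0.0387), a fitted value that depends on the prior count. It was -2.0 (adjusted p = 1) without the 3 control LT-HSC libraries high in S100a8, in which Ifi209 was also highest among LT-HSC, and the part of other cells in it was not tested. It was -2.90 (adjusted p = 0.0973) with the number in the column headers as a term, and -5.25 among libraries with the lower of the 2 header numbers against -0.10 among those with the higher one. The call was kept in 14 of 36 alternatives (adjusted p from 6.23e-06 to 1), and leaving out any 1 of 19 libraries ended it. Over all 29 libraries left out in turn the log2 value ran from -4.05, without mutant ST-HSC replicate 3, to -2.54, without control ST-HSC replicate 1.

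Between mutant populations, Ifi209 was called higher in MPP3 than in LT-HSC and ST-HSC, with count ratios of 132.5 (45.1 to 645) and 65.7 (29.97 to 180.0). It was also called higher in mutant MPP4 than in mutant LT-HSC (ratio 37.2, 12.45 to 183, edgeR adjusted p = 0.0361), when 0.901% of all genes were called higher, and than in mutant ST-HSC (ratio 18.4, 8.25 to 51.2, adjusted p = 0.0481), when 1.16% were. The MPP3 calls were kept in 13 of 14 and 15 of 15 alternatives, the first being lost without mutant LT-HSC replicate 3 (adjusted p = 0.0523). The MPP4 calls were kept in 8 of 14 and 7 of 15 (adjusted p up to 0.187 and 0.113). They were lost without any 1 of the 4 MPP4 libraries, and also without mutant LT-HSC replicate 2 or 3, or mutant ST-HSC replicate 1, 2 or 4.

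The other genes within 300 kb of Ifi209 on chromosome 1 are mostly of the same p200 family, whose near-identical copies can trade reads. Of the 13 genes there, Ifi209 included, 11 (84.6%) had a lower average level in mutants and 2 a higher one, against 50.3% of all genes with a lower one, and Ifi209 was the 1 gene called. The window was drawn around Ifi209, which is itself among the 11, and copies that trade reads are not independent. The count is therefore no test of the locus, and it includes the 3 control LT-HSC libraries high in S100a8. Ifi204 was at a mean of 6.51 CPM in control and 0.153 CPM in mutant LT-HSC, and Ifi207 at 14.4 and 0.848 CPM. That control group holds the 3 libraries high in S100a8, and its other library was at 1.84 CPM for Ifi204 and 0 for Ifi207; the part of other cells was not tested. Ifi203, the most abundant of the cluster, was at 229.4 and 247.5 CPM. These 3 neighbours were named after their values were seen.

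Rsad2 (viperin, ENSMUSG00000020641, GRCm38 chr12:26442746-26456452) makes a nucleotide that stops viral RNA polymerases. It held 149.7, 98.4, 68.5 and 8.47 CPM in control LT-HSC, against 24.9, 11.5 and 16.4 CPM in mutant LT-HSC. Control ST-HSC held 27.0, 20.35 and 8.91 CPM, control MPP3 16.3, 24.4 and 16.6 CPM, and control MPP4 27.1, 21.4, 9.47 and 19.0 CPM. The 3 high libraries were those high in S100a8, and the fourth control LT-HSC library lay below every mutant LT-HSC library. Rsad2 was called lower in control MPP4 than in LT-HSC (-2.07 ± 0.565, edgeR adjusted p = 0.0454), but the difference was 1.18 in the other direction (adjusted p = 0.736, the highest of 16 alternatives) without those 3 libraries. Leaving out any 1 library but control LT-HSC replicate 4 also ended the call. The difference between mutant and control LT-HSC was -2.21 ± 0.692 (adjusted p = 0.298), and the average mutant effect -1.06 (adjusted p = 0.196).

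The rest of the pathway was read from lists of genes that are not members. Of 15 interferon ligand genes, 13 were matched, none passed the filter, and 7 were at 0 in every library (Ifnb1, Ifna5, Ifna13, Ifna14, Ifne, Ifnl2 and Ifnl3). The highest count of any ligand in any library was 15. No gene of the lists of receptors and signal regulators (22 genes), nucleic acid sensors (20 genes) or further interferon-induced genes (50 of 52 matched) was called by edgeR between mutant and control in any population or on average.

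Some receptor genes were higher in the progenitors. Ifnar2, a chain of the type I interferon receptor, was at 133 ± 13.2 CPM (SD, n = 4) in control MPP4 and 55.2 ± 5.74 CPM (SD, n = 4) in control LT-HSC, a log2 difference of 1.27 ± 0.213 (edgeR adjusted p = 0.00205). It was 1 of 3 of the 21 receptor and regulator genes tested that were called higher there, with Il10rb and Irf2bp2, when 1.49% of all genes were called higher. Without the 3 control LT-HSC libraries high in S100a8 none of these 3 was called (Ifnar2 at 1.40, adjusted p = 0.209). None of the 21 was called in control MPP3 against LT-HSC. In mutant MPP3, 5 of 21 were called higher than in LT-HSC, when 1.71% of all genes were. They were Ifnar2 (124.9 ± 45.6 against 55.15 ± 11.2 CPM, adjusted p = 0.0377), Ifngr1, a chain of the interferon gamma receptor (71.4 ± 11.4 against 26.7 ± 3.63 CPM, adjusted p = 0.00857), Ifngr2, and the transcription factors Irf8 and Irf4. The Ifnar2 call was lost without any of the 3 mutant LT-HSC libraries or mutant MPP3 replicate 1 or 2 (adjusted p up to 0.196), and the Ifngr1 call without mutant LT-HSC replicate 3 (adjusted p = 0.0655). Irf4 and Irf8 also mark plasma cells and myeloid progenitors, whose markers were high in MPP3 as given above. Irf8 and Il10rb were called higher in mutant MPP4 than in LT-HSC, when 0.901% of all genes were. The other receptor chain, Ifnar1, stood between 58.2 ± 7.71 and 82.95 ± 5.53 CPM over the 8 groups, and was not called in any comparison.

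Of the 20 sensors, Tmem173 (STING), which relays cytosolic DNA, was higher in control MPP3 (43.9 ± 6.15 CPM) and MPP4 (61.6 ± 20.3 CPM) than in LT-HSC (19.1 ± 2.55 CPM), with edgeR adjusted p of 0.0426 and 0.00142. Of all genes, 0.582% and 1.49% were called higher in these comparisons. Tlr3, the endosomal receptor for double-stranded RNA, was lower in control MPP3 (0.359 ± 0.148 CPM) than in LT-HSC (4.76 ± 2.52 CPM, edgeR adjusted p = 0.0233). It was higher in control MPP4 than in MPP3. The control MPP3 values, 0.272 to 0.530 CPM, lay around the floor of 3 counts in those libraries (0.318 to 0.413 CPM). In mutants Tlr3 stood at 2.48 ± 2.83 CPM in MPP3 and 1.97 ± 0.745 CPM in LT-HSC, and was not called. Of all genes, 0.810% were called lower in control MPP3 than in LT-HSC, and 0.442% higher in control MPP4 than in MPP3. In mutant MPP4 against LT-HSC, Tlr7, a receptor for single-stranded RNA, was called higher, when 0.901% of all genes were. Ifih1 (MDA5), which senses long double-stranded RNA, was called lower there (30.8 ± 1.73 against 77.4 ± 15.2 CPM, adjusted p = 0.0236), when 1.28% of all genes were called lower. How these sensor calls fared under the alternatives is not reported here, including without the 3 control LT-HSC libraries high in S100a8.

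More of the further interferon-induced genes stood lower than higher in MPP3 against LT-HSC, with single calls in both directions. Of the 49 tested in controls, 32 stood lower in MPP3 (median -0.47), when 48.5% of all genes stood higher. Of the 48 tested in mutants 27 stood lower (median -0.10), when 50.3% of all genes stood higher. Ddx60, a helicase that promotes RNA sensing, was called lower in both (8.72 ± 2.27 against 25.2 ± 6.80 CPM in controls, edgeR adjusted p = 0.0258, and 7.23 ± 1.40 against 26.8 ± 5.43 CPM in mutants, adjusted p = 0.00963). Ly6e, a membrane protein that blocks coronavirus fusion and is common in progenitors, was called higher in both, at 1040 ± 280.7 against 462.7 ± 100.3 CPM in controls and 1174 ± 188 against 503.3 ± 158 CPM in mutants (adjusted p = 0.0428 and 0.0116). In controls the Ddx60 call was kept in 10 of 15 alternatives and the Ly6e call in 7 of 15, and both were lost without control LT-HSC replicate 2 or 4, without control MPP3 replicate 2 or 3 and without the 3 libraries high in S100a8. The Ly6e call was also lost without control LT-HSC replicate 3. In mutants both were lost without mutant LT-HSC replicate 1 (adjusted p = 0.0619 for Ddx60), and Ly6e without mutant LT-HSC replicate 3 too. In controls 1 of the 49 was called higher, when 0.582% of all genes were, and 1 lower, when 0.810% were. In mutants 4 of the 48 were called lower, when 1.25% of all genes were, and 1 higher, when 1.71% were. The exonuclease Isg20 was called lower in control MPP4 than in LT-HSC (9.28 ± 3.60 against 56.7 ± 28.95 CPM, adjusted p = 0.00147), when 3.01% of all genes were. The control LT-HSC libraries ran from 18.9 to 87.3 CPM, and mutant LT-HSC had a mean of 19.9 CPM. Without the 3 control LT-HSC libraries high in S100a8 the Isg20 difference was -1.04 (adjusted p = 0.690), and the part of other cells was not tested. Psmb8, a subunit of the immunoproteasome, was called higher in control MPP4 than in ST-HSC (81.7 ± 21.3 against 34.9 ± 11 CPM, adjusted p = 0.0241), when 0.649% of all genes were. That call was lost without control MPP4 replicate 2 or 3 or control ST-HSC replicate 2 or 3 (adjusted p up to 0.103).

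Within groups the members varied largely on their own. The mean pairwise Pearson correlation of their deviations from the group means was 0.057 over the 29 libraries, against 0.0057 over the 15915 genes kept, given here as a description of libraries that share depth and scaling. The closest pairs were Ifitm1 with Ifitm2 (0.816) and Ifitm2 with Ifitm3 (0.709), which are neighbouring paralogs whose reads can be shared. Ifit3 with Cmpk2 (0.700), Gbp2 with Gbp3 (0.669), Irgm1 with Rtp4 (0.658) and Oasl1 with Ifit2 (0.656) came next. The seventh, named after its values were seen, was Rsad2 with Ifi209 (0.655), whose highest values stood in control LT-HSC replicate 1 for Rsad2 and, within LT-HSC, for Ifi209.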

How the data were processed

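RNA of 29 sorted bone marrow samples was sequenced, and the authors deposited expected counts for each gene as whole numbers, made with RSEM 1.2.12, Bowtie2 2.2.0, SAMtools 0.1.18 and edgeR 3.5.3 on GRCm38, per the submitters' processing notes. What each tool did, and whether strand was used in counting, are not given in the sources used here. Because RSEM shares reads between near-identical genes, paralogs such as the Ifitm, Oas and p200 families are uncertain. Reads in a stretch that the spans of 2 genes share could not be assigned with certainty. That stretch was 7974 bases for Igtp with Irgm2 and 682 for Dtx3l with Parp9. It was 123 bases for Irf9 with Rnf31 and 45 for Irf7 with Phrf1.

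Symbols were matched by Ensembl identifier in the GRCm38 annotation (37607 matched, 1317 not). Groups came from the titles. The titles of mutant ST-HSC lack the abbreviation for mutant, so the letter in each description was used beside the title there. The members, gene lists, comparisons and alternatives were chosen with earlier results of these data known. All 39 replicate pairs differed by more than sampling noise (chi-square per degree of freedom 20.3 to 72.4).

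Tests used R 4.3.3 and edgeR 4.0.16, with scaling by TMM, genes kept by filterByExpr (at least 10 counts and 15 in total), the quasi-likelihood test and Benjamini-Hochberg adjustment over all genes tested, with a threshold of 0.05. Each mutant comparison used the libraries of its own population, population comparisons used the 14 control or the 15 mutant libraries, and the average effect and the test of differing effects used all 29. CPM used TMM-scaled totals, and log2 levels a prior count of 2. An error with a log2 difference is an approximate standard error, the size of the difference over the root of the test's F statistic. Named were members called in any comparison, the 2 highest per kilobase in each role group, Ifnar1, Ifnar2 and Ifngr1, and up to 4 called genes of each pathway list by smallest p. Further names are marked as chosen after seeing values, and other genes listed beside a small count were named for completeness. Of the genes the rule names, 1 is not reported here. Alternatives were size factors of DESeq2, no filter, DESeq2 1.42.0, leaving out the mitochondrial rRNA genes and Gm42418, each library in turn, a replicate block (limma 3.58.1 voom for the average effect), all 29 libraries in 1 fit, a prior count of 0.5, and leaving out the 3 control LT-HSC libraries with over 100 CPM of S100a8. The replicate block was the title number for mutant against control within a population and the description number otherwise. The scripts were tested on simulated data.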

Additional observations from a re-analysis of the deposited data

Results flagged for a closer look

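In groups of 4 libraries, a library was singled out where its gap to the nearest other library, divided by the group's range, passed Dixon's 95% critical value. Of 100 gene and group combinations tested, 7 did, and chance gives about 1 in 20. Mutant ST-HSC replicate 2 was singled out in 3 genes, with Usp18 at 27.8 CPM (the other 3 libraries 2.52 to 5.13), Ifi27 at 73.5 CPM (34.7 to 38.1) and Rtp4 at 2.44 CPM (15.7 to 17.1). Mutant MPP3 replicate 1 was singled out in Irf9, at 98.3 CPM (35.1 to 42.7), and in Igtp, at 6.49 CPM (15.8 to 16.8). Ifi209 was at 0.932 CPM in mutant ST-HSC replicate 3 and at 0 in the other 3 libraries. With those at 0, any count above 0 passes the rule, so this flag carries no weight. Parp14 was at 77.8 CPM in control MPP4 replicate 3 (54.4 to 57.0).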

How the results depend on the processing

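Counting, 3 to 4 libraries a group and p200 or Ifitm paralogs limit the values, and the alternatives by header number were chosen after seeing the data. No pairing was seen in the correlations below, which cannot show that it is absent, as unmatched libraries were not compared. Correlations of same-numbered libraries ran from -0.175 to 0.0915 by title number (13 pairs) and from -0.152 to 0.175 by description number (39 pairs). With the title number as a block, 2 members were called for mutant against control LT-HSC (0 without it). That number joins libraries of different description numbers. With the description number as a random block in voom, 0 were called for the average effect (1). With the description number as a block in edgeR, members called were 2 among control populations (4) and 1 for control MPP4 against LT-HSC (2). They were 2 for control MPP3 against ST-HSC (4) and 0 for control MPP4 against ST-HSC (1). For mutant MPP3 against LT-HSC this block gave 3 (5), and for mutant MPP4 against MPP3 1 (2). It gave 2 (3) for control MPP3 against LT-HSC and 4 (6) for mutant MPP3 against ST-HSC. Calls lost with it included Oasl2 in control MPP3 against LT-HSC and ST-HSC (adjusted p = 0.072 and 0.08), in mutant MPP3 against LT-HSC (0.105) and in mutant MPP4 against MPP3 (0.0709), Ifitm3 in mutant MPP3 against LT-HSC (0.0666), and Usp18 and Igtp in mutant MPP3 against ST-HSC (0.0839 and 0.0524). In voom with the description number as a random block, the average effect of Ifi209 was -2.62 (limma adjusted p = 0.587), and its call was lost. The 8 description numbers recur across populations, and each stands in 1 genotype only. The description number as a block in edgeR moved the median for control MPP3 against LT-HSC from -0.65 to -0.483.

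With DESeq2, 2 members were called for mutant against control LT-HSC, 2 for the average effect, 1 for differing effects (0 in edgeR), 10 among control populations, 1 for control ST-HSC against LT-HSC, 7 for control MPP3 against LT-HSC (3), 10 for control MPP3 against ST-HSC, 3 for control MPP4 against ST-HSC, 5 for control MPP4 against MPP3 (1), 11 for mutant MPP3 against ST-HSC (6) and 2 for mutant MPP4 against ST-HSC (1). With no filter, 1 was called for mutant against control LT-HSC, 5 for control MPP3 against LT-HSC, 1 for control MPP4 against LT-HSC, 0 for control MPP4 against ST-HSC and 2 for control MPP4 against MPP3. With all 29 libraries in 1 fit, the counts were 1 for mutant against control LT-HSC, 1 for control MPP4 against LT-HSC, 0 for control MPP4 against ST-HSC and 0 for mutant MPP4 against ST-HSC. With the mitochondrial rRNA genes left out, control MPP4 against ST-HSC had 0. With the header number as a term, the counts were 0 for the average effect, 1 for control MPP4 against LT-HSC and 0 for control MPP4 against ST-HSC, and the median for mutant against control ST-HSC was -0.0793 (-0.0158).

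Without the 3 control LT-HSC libraries high in S100a8, the counts were 0 for the average effect, 2 among control populations, 1 for control MPP3 against LT-HSC and 0 for control MPP4 against LT-HSC. The medians became 0.0885 for mutant against control LT-HSC (-0.0841), 0.226 for control ST-HSC against LT-HSC (0.0809), -0.421 for control MPP3 against LT-HSC and 0.0929 for control MPP4 against LT-HSC (-0.132), and Rsad2 in that comparison was 1.18 (-2.07). The lone control LT-HSC library is assumed to vary like the other groups. Within the lower and the higher of the 2 header numbers, the medians were -0.47 and 0.102 for mutant against control LT-HSC and -0.0978 and 0.232 for ST-HSC. Within the lower number they were -0.0136 for control ST-HSC against LT-HSC and 0.092 for mutant MPP4 against LT-HSC (-0.0826). Within the higher number they were -0.501 for control MPP3 against LT-HSC, 0.011 for control MPP4 against LT-HSC, 0.0704 for mutant ST-HSC against LT-HSC (0.198) and -0.494 for mutant MPP3 against LT-HSC. The cause of these shifts was not tested.

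Leaving out 1 library at a time gave medians of -0.675 to -0.492 for control MPP3 against LT-HSC, -0.627 to -0.463 for control MPP3 against ST-HSC, -0.502 to -0.229 for mutant MPP3 against LT-HSC, -0.279 to -0.133 for mutant MPP4 against ST-HSC and -0.108 to 0.173 for mutant against control ST-HSC. Members called were 0 to 3 for mutant against control LT-HSC, 0 to 2 for the average effect, 2 to 5 among control populations, 0 to 1 for control ST-HSC against LT-HSC, 2 to 5 for control MPP3 and 0 to 2 for control MPP4 against LT-HSC, and 2 to 4 for control MPP3 and 0 to 0 for control MPP4 against ST-HSC. They were 0 to 1 for control MPP4 against MPP3, 2 to 5 for mutant MPP3 and 0 to 1 for mutant MPP4 against LT-HSC, 0 to 1 for mutant MPP4 against ST-HSC and 0 to 2 for mutant MPP4 against MPP3. For single named members, the other alternatives kept direction and call in 223 of 261 values, lost the call in 37 and turned 1 (Rsad2), and leaving out 1 library lost the call in 133 of 349.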
